A study of Homo sapiens with 27 samples.

Results

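Matrix metalloproteinases (MMPs) are zinc-dependent endopeptidases that cut collagens, proteoglycans and other proteins of the extracellular matrix. They are made as inactive proenzymes in which a cysteine of the propeptide holds the catalytic zinc, and they become active once that "cysteine switch" is released. Transcription of many MMP genes responds to cytokines, growth factors and the AP-1 and ETS transcription factors, and tissue inhibitors of metalloproteinases (TIMPs) block the active enzymes. The genes described here are 10 MMP genes other than MMP2, namely MMP1, MMP3, MMP7, MMP9, MMP10, MMP11, MMP13, MMP17, MMP19 and MMP28, which were taken by symbol from the 55882 gene symbols of the count tables. All 10 were found. MMP17 is listed with the secreted enzymes, although its product is held on the cell surface by a glycolipid anchor.

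The RNA came from U2OS, a human osteosarcoma cell line, in which MMP2 was depleted with short hairpin RNAs. The control line carried a blank pLKO.1 lentiviral vector without a hairpin against MMP2, and the MMP2sh1 and MMP2sh2 lines carried pLKO.1 with 1 hairpin each against MMP2. The sample titles call the control line WT, and its blank vector is known from the treatment protocol. By that protocol all 3 lines were transduced and selected with puromycin, and each is 1 stable line, so a difference between lines cannot be told apart from other differences between these transduced populations. Cells were plated at 30% confluence and harvested subconfluent at day −2, confluent at day 0 and overconfluent at day +2, with 3 libraries of polyadenylated RNA in each of the 9 groups. The libraries were described as independent biological replicates, and p-values measure the spread between them.

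Of the 10 genes, none was without reads in all 27 libraries, but they fell into 2 sets. MMP3, MMP7, MMP9, MMP13, MMP17 and MMP19 had reads in every library. MMP1, MMP10, MMP11 and MMP28 had at most 14, 22, 19 and 23 reads in any library, and were without reads in 8, 7, 5 and 2 of the 27 libraries. Gene totals ranged from 33580129 to 59374327 reads per library. A count of 0 therefore allows up to 3 reads, or 0.0505 to 0.0893 CPM (the count scaled to library size) depending on the library, for counting error only.

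The stretch of coding sequence around the cysteine switch is shown for the 6 genes with reads in every library, because the latency of the family rests on it. The sequences come from the GENCODE transcripts lifted to GRCh37, 5′ to 3′ on the coding strand, and the capitals mark the cysteine codon.
MMP3: cccaggTGTggagttcctgat
MMP7: cccagaTGTggagtgccagat
MMP9: ccacggTGCggggtcccagac
MMP13: ccaagaTGCggggttcctgat
MMP17: ccacgcTGCtccctgccagac
MMP19: cctcgtTGTggcctagaggat
Against the 21 bases of MMP3, MMP7 had 18 identical bases, MMP13 had 17, MMP9 had 14, MMP19 had 12 and MMP17 had 10. Over whole coding sequences the closest pair among the 10 genes was MMP3 and MMP10, with 85.0% identity and a longest shared mRNA run of 96 bases. The next pair, MMP1 and MMP3, had 64.7% identity and a longest shared run of 18 bases. Whether reads were shared between MMP3 and MMP10 was not tested.

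The targeted gene was checked first. MMP2, which encodes gelatinase A, stood at 222, 226.2 and 248 CPM in the control at day −2, at 318, 324 and 332 CPM at day 0, and at 496, 480 and 492 CPM at day +2. In MMP2sh1 it stood at 34.0, 39.5 and 46.8 CPM at day −2, at 53.6, 57.4 and 66.3 CPM at day 0, and at 97.3, 93.7 and 100 CPM at day +2. In MMP2sh2 it stood at 136, 140 and 155 CPM, at 154, 159 and 160 CPM, and at 278, 291 and 266 CPM at the same days. Both lines were below the control at every day without overlap, and MMP2sh1 was below MMP2sh2. Of the osteoblast lineage markers, RUNX2 (30.0 to 63.7 CPM), COL1A1 (1005 to 1485 CPM) and SPARC (1182 to 2074 CPM) were present in every library, whereas IBSP had no read in any library and SP7 had at most 6 reads. ALPL stood at 0.397 to 6.98 CPM. COL1A2 (at most 0.683 CPM) and BGLAP (at most 0.570 CPM) were without reads in 6 and 5 libraries. The summed level of 5 leukocyte and macrophage markers was 1.02 to 3.08 CPM, with CD68 and LYZ at 0 in 22 and 23 libraries. The summed level of 4 osteoclast markers was 3.03 to 5.64 CPM at day +2 and 1.43 to 3.22 CPM before it, with OCSTAMP at 0 in 26 libraries, that of 2 endothelial markers 1.61 to 5.02 CPM, and that of 4 epithelial markers 13.7 to 18.8 CPM at day +2 and 7.15 to 14.7 CPM before it. At day +2 the summed level of 8 osteoblast lineage markers was 3349 to 3491 CPM in MMP2sh1, above 2628 to 2796 CPM in the control and 2583 to 2789 CPM in MMP2sh2. Nearly all of this sum is COL1A1 and SPARC. The mitochondrial share of reads was 6.53 to 7.15% in MMP2sh1 at that day, above 5.49 to 6.37% in the control and 6.10 to 6.41% in MMP2sh2. The part of these markers and shares in the results below was not tested.

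MMP3, stromelysin-1, which cuts proteoglycans and can activate other pro-MMPs, fell with cell density in all 3 lines and was higher in both MMP2-depleted lines at days −2 and 0. In the control it stood at 29.6, 31.1 and 24.1 CPM at day −2, at 3.42, 3.87 and 3.63 CPM at day 0, and at 0.199, 0.0981 and 0.218 CPM at day +2. In MMP2sh1 the values were 40.8, 43.1 and 42.1 CPM, then 8.20, 6.11 and 8.22 CPM, then 0.104, 0.153 and 0.239 CPM. In MMP2sh2 they were 51.5, 56.1 and 54.3 CPM, then 11.6, 14.9 and 13.8 CPM, then 0.339, 0.0235 and 0.637 CPM. No library of one day overlapped with a library of another day, whatever the line. At days −2 and 0 the lines were ordered control, MMP2sh1, MMP2sh2 without overlap, and at day +2 their ranges overlapped. The day +2 levels rested on 4 to 10 reads per library in the control and MMP2sh1 and on 14, 1 and 27 reads in MMP2sh2, so that a difference between lines was not tested there.

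From day −2 to day +2, the log2 change of MMP3 (± SE) was −7.34 ± 0.19 in the control, −7.95 ± 0.17 in MMP2sh1 and −7.32 ± 0.20 in MMP2sh2, a fall of 162-fold, 247-fold and 160-fold (n = 3 per group, edgeR quasi-likelihood test with Benjamini-Hochberg adjustment over all genes, adjusted p = 3.9e-21, 2.1e-20 and 1.2e-23). The change in MMP2sh2 was −8.21 without its day +2 replicate 3 and −6.77 without its day +2 replicate 2, both of them called. With at least 10 counts in every library MMP3 was not tested for this span in any line. The interaction of line and day for this span was not called for either line, while that of MMP2sh2 from day −2 to day 0 was (0.96 ± 0.14, edgeR adjusted p = 6.0e-05). Relative to control, MMP3 was 1.48-fold higher in MMP2sh1 at day −2 (log2 0.57 ± 0.08, edgeR adjusted p = 4.6e-05) and 2.06-fold higher at day 0 (1.04 ± 0.16, 7.3e-06). In MMP2sh2 it was 1.90-fold higher at day −2 (0.93 ± 0.08, edgeR adjusted p = 2.5e-08) and 3.66-fold higher at day 0 (1.87 ± 0.14, 1.7e-12). Compared directly, MMP3 was lower in MMP2sh1 than in MMP2sh2 by 1.29-fold at day −2 and by 1.77-fold at day 0 (edgeR adjusted p = 0.0014 and 4.9e-06). Both lines are compared with the same control libraries.

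MMP9, gelatinase B, which cuts denatured collagen and basement membrane collagen, dipped at confluence in every line and was higher in MMP2sh1 at all 3 days. In the control it stood at 15.8, 19.5 and 19.5 CPM at day −2, at 5.13, 4.10 and 5.63 CPM at day 0, and at 18.4, 20 and 21.2 CPM at day +2. In MMP2sh1 it stood at 39.7, 43.9 and 50.6 CPM, then 6.66, 7.44 and 7.63 CPM, then 70.1, 67.1 and 63.5 CPM. In MMP2sh2 it stood at 16.2, 20.1 and 21.9 CPM, then 5.28, 6.43 and 4.53 CPM, then 32.0, 28.7 and 20.3 CPM. The MMP2sh1 libraries lay above all control and MMP2sh2 libraries of their day, while MMP2sh2 overlapped with the control at each day. MMP2sh1 at day +2, where MMP9 was highest, is also the group with the highest summed osteoblast lineage markers. That sum is nearly all COL1A1 and SPARC. In MMP2sh1 at day −2, the second highest MMP9 group, the sum was 2399 to 2839 CPM. It overlapped there with the control of that day (2407 to 2628 CPM). The part of these markers in the MMP9 level was not tested.

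In the control, MMP9 fell by 1.87 ± 0.13 (log2, SE) from day −2 to day 0 and rose by 2.03 ± 0.12 from day 0 to day +2 (edgeR adjusted p = 3.4e-12 and 9.4e-15), and day +2 did not pass the test against day −2 (0.13 ± 0.10, 0.24). From day −2 to day +2 it rose by 0.58 ± 0.08 in MMP2sh1 (edgeR adjusted p = 2.2e-06) and by 0.49 ± 0.12 in MMP2sh2 (0.00097), where the ranges overlapped and DESeq2 gave 0.0796. Relative to control, MMP9 was 2.46-fold higher in MMP2sh1 at day −2, 1.46-fold at day 0 and 3.36-fold at day +2 (log2 1.30 ± 0.10, 0.54 ± 0.15 and 1.75 ± 0.07, edgeR adjusted p = 8.0e-10, 0.0084 and 1.3e-16), the call at day 0 being lost without control replicate 2 of that day (0.0601). In MMP2sh2 the differences from control were 0.08 ± 0.11 at day −2 and 0.11 ± 0.17 at day 0, which did not pass (edgeR adjusted p = 0.70 and 0.74). At day +2 MMP9 was 1.36-fold higher in MMP2sh2 (0.44 ± 0.10, edgeR adjusted p = 0.0048), but the ranges overlapped and the call was lost without control replicate 1 or MMP2sh2 replicate 1 of that day (highest adjusted p = 0.145). MMP2sh1 exceeded MMP2sh2 by 2.31-fold, 1.35-fold and 2.47-fold at the 3 days (edgeR adjusted p = 2.0e-09, 0.033 and 8.7e-09). The day 0 difference was lost on all 27 libraries (0.0601) and without any 1 of 4 libraries (MMP2sh1 replicate 2 or 3, MMP2sh2 replicate 1 or 3).

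The size of the MMP2sh1 difference itself changed with the day. The line-by-day interaction for MMP9 was −0.76 ± 0.16 for the step from day −2 to day 0 and 1.21 ± 0.14 for the step from day 0 to day +2 (edgeR adjusted p = 0.0097 and 2.8e-07). For the whole span it was 0.45 ± 0.13 (0.025), a call lost on all 27 libraries (adjusted p = 0.0922) and without any 1 of 7 of the 12 libraries (highest adjusted p = 0.0773). The first was lost without control replicate 3 of day 0 (adjusted p = 0.0547). In MMP2sh2 the MMP9 interaction for the whole span was not called (0.35 ± 0.17, edgeR adjusted p = 0.27). It was called without day +2 replicate 3 of that line (edgeR adjusted p = 0.0482). The comparisons of single steps in the MMP2-depleted lines, and their interactions, were chosen after values had been seen.

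**Figure D1:**
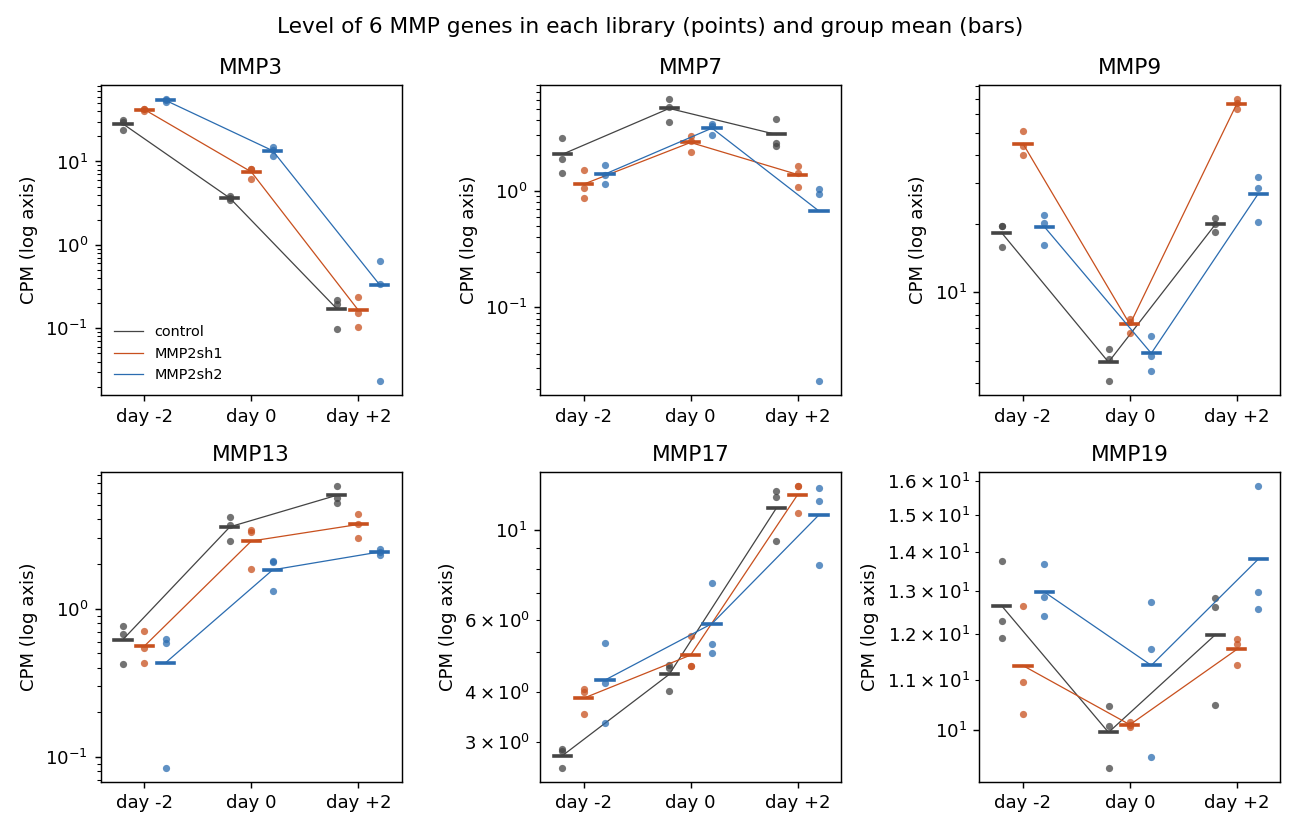
Level of MMP3, MMP7, MMP9, MMP13, MMP17 and MMP19 (CPM, log axis, a different range in each panel) by day in the control, MMP2sh1 and MMP2sh2 lines, with 1 point per library, bars at the group means and thin lines joining them. MMP3 falls from 28.2 to 0.171 CPM in the control, MMP9 dips at day 0 in all 3 lines, and MMP13 and MMP17 rise.

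MMP13, collagenase-3, which cuts fibrillar collagen and is known from cartilage and bone, rose with density and was lower in both MMP2-depleted lines at day +2. In the control it stood at 0.675, 0.426 and 0.760 CPM at day −2, at 4.18, 3.65 and 2.87 CPM at day 0, and at 5.14, 5.59 and 6.75 CPM at day +2. In MMP2sh1 it stood at 0.541, 0.431 and 0.708 CPM, then 1.87, 3.30 and 3.41 CPM, then 3.73, 2.99 and 4.38 CPM. In MMP2sh2 it stood at 0.626, 0.589 and 0.0850 CPM, then 2.07, 2.10 and 1.32 CPM, then 2.42, 2.54 and 2.29 CPM. At day −2 the 3 lines overlapped, and at day +2 they were ordered control, MMP2sh1, MMP2sh2 from high to low without overlap.

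From day −2 to day +2, MMP13 rose by 3.24 ± 0.25 in the control, 2.72 ± 0.31 in MMP2sh1 and 2.44 ± 0.41 in MMP2sh2 on the log2 scale (edgeR adjusted p = 1.4e-11, 7.2e-08 and 7.1e-06). The step from day 0 to day +2 alone passed in the control (0.73 ± 0.18, edgeR adjusted p = 0.0014). It did not pass in MMP2sh1 (0.40 ± 0.23, edgeR adjusted p = 0.17) or MMP2sh2 (0.43 ± 0.26, 0.19). The interaction of line and day for this step was not called in MMP2sh1 (−0.31 ± 0.30, edgeR adjusted p = 0.68) or MMP2sh2 (−0.29 ± 0.29, 0.70). Nor was that for the whole span (−0.51 ± 0.39 and −0.81 ± 0.47, edgeR adjusted p = 0.51 and 0.38). Relative to control MMP13 was 1.58-fold lower in MMP2sh1 at day +2 (log2 −0.66 ± 0.18, edgeR adjusted p = 0.011), a call lost without control replicate 3 or MMP2sh1 replicate 2 of that day (highest adjusted p = 0.0925) and on all 27 libraries (0.113). In MMP2sh2 it was 1.98-fold lower at day 0 and 2.41-fold lower at day +2 (−0.98 ± 0.24 and −1.27 ± 0.18, edgeR adjusted p = 0.0040 and 3.3e-06). The difference between MMP2sh1 and MMP2sh2 did not pass at any day (edgeR adjusted p = 0.80, 0.083 and 0.077).

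MMP7, matrilysin, the smallest of these enzymes, lacking the hemopexin-like domain, was highest at confluence in all 3 lines and lower in both MMP2-depleted lines at days 0 and +2. In the control it stood at 1.42, 2.84 and 1.87 CPM at day −2, at 6.08, 3.89 and 5.19 CPM at day 0, and at 2.55, 2.43 and 4.09 CPM at day +2. In MMP2sh1 it stood at 1.05, 0.862 and 1.49 CPM, then 2.15, 2.96 and 2.64 CPM, then 1.63, 1.07 and 1.41 CPM. In MMP2sh2 it stood at 1.35, 1.14 and 1.67 CPM, then 3.58, 2.99 and 3.71 CPM, then 0.943, 0.0235 and 1.04 CPM. The control libraries lay above those of both other lines at days 0 and +2, and the lines overlapped at day −2. Replicate 2 of MMP2sh2 at day +2 held 1 MMP7 read against 39 and 44 in its group, and it also held the single MMP3 read noted above.

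In the control, MMP7 rose 2.50-fold from day −2 to day 0 and fell 1.64-fold from day 0 to day +2 (edgeR adjusted p = 5.0e-05 and 0.0068), the fall being lost on all 27 libraries (0.0900) and without control replicate 1 of day 0 (0.0633). Relative to control, MMP7 was 1.97-fold lower in MMP2sh1 at day 0 and 2.21-fold lower at day +2 (log2 −0.98 ± 0.20 and −1.14 ± 0.27, edgeR adjusted p = 0.00042 and 0.0033), the first being lost on all 27 libraries (0.0563) and the second without control replicate 3 of day +2 (0.0714). In MMP2sh2 it was 1.49-fold lower at day 0 (−0.57 ± 0.19, edgeR adjusted p = 0.037), a call lost without any 1 of 4 of the 6 libraries (control replicate 1 or 3, MMP2sh2 replicate 1 or 2) and on all 27 libraries (0.367). At day +2 it was 4.52-fold lower in MMP2sh2 (−2.18 ± 0.41, edgeR adjusted p = 0.00025), whereas DESeq2 gave an adjusted p = 0.284. This log2 difference ranged from −2.65 to −1.61 without single libraries, called each time. It had no value with at least 10 counts in every library. The MMP2sh2 interaction for the step from day 0 to day +2 was −1.61 ± 0.48 (edgeR adjusted p = 0.042) and was lost with DESeq2 (adjusted p = 0.411), on all 27 libraries and without any 1 of 6 of the 12 libraries (highest 0.168). With at least 10 counts in every library it was not tested.

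The 300 bases around the start of MMP7 are 1 of 3 member entries, with MMP10 and MMP11, in the RefSeq promoter table. MMP7 alone of the 3 held the AP-1 motif TGACTCA, searched on both strands, which 1738 of 35116 promoters held (4.95%). The match lies 67 bases upstream of the start, at chr11:102401528-102401556 with its flanks (GRCh37, minus strand), and is shown because AP-1 is a regulator of MMP genes. The capitals mark the match as read on the gene strand.
MMP7: aaacactcaaaTGAGTCAcctatttccac
The TATA motif TATAAA, searched on the gene strand, was in MMP7 and MMP10 and in 7.33% of all promoters. The RUNX motif TGTGGT, on both strands, was in none of the 3 and in 13.1% of all promoters. A match describes letters in this window and not binding.

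MMP17, the membrane-bound MT4-MMP, rose with density in all 3 lines. In the control it stood at 2.85, 2.89 and 2.60 CPM at day −2, at 4.57, 4.64 and 4.02 CPM at day 0, and at 9.39, 12.4 and 12 CPM at day +2. In MMP2sh1 it stood at 4.06, 3.99 and 3.51 CPM, then 4.63, 4.63 and 5.49 CPM, then 11, 12.8 and 12.8 CPM. In MMP2sh2 it stood at 4.19, 3.35 and 5.27 CPM, then 7.41, 4.97 and 5.24 CPM, then 11.8, 12.7 and 8.17 CPM. The rise from day −2 to day +2 was 4.06-fold, 3.15-fold and 2.57-fold in control, MMP2sh1 and MMP2sh2 (edgeR adjusted p = 7.6e-12, 9.9e-10 and 3.9e-08). The step from day −2 to day 0 alone passed in the control (log2 0.67 ± 0.19, edgeR adjusted p = 0.0058). It did not pass in MMP2sh1 (0.35 ± 0.17, edgeR adjusted p = 0.12) or MMP2sh2 (0.46 ± 0.19, 0.064). The interaction of line and day for this step was not called in MMP2sh1 (−0.32 ± 0.24, edgeR adjusted p = 0.67) or MMP2sh2 (−0.19 ± 0.26, 0.81). Nor was that for the whole span (−0.36 ± 0.20 and −0.66 ± 0.24, edgeR adjusted p = 0.34 and 0.11). The whole-span value of MMP2sh2 was called without its day −2 replicate 2 (edgeR adjusted p = 0.0419). At day −2 both MMP2-depleted lines lay above the control without overlap, but neither difference passed (log2 0.47 ± 0.20 and 0.60 ± 0.20, edgeR adjusted p = 0.14 and 0.053). For MMP2sh2 DESeq2 and the fit on all 27 libraries did call it.

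MMP19, a widely expressed MMP that cuts basement membrane proteins, had group means between 9.96 and 13.8 CPM. In the control it stood at 11.9, 13.8 and 12.3 CPM at day −2, at 10.5, 9.32 and 10.1 CPM at day 0, and at 12.8, 12.6 and 10.5 CPM at day +2. In MMP2sh1 it stood at 10.3, 12.6 and 11 CPM, then 10.1, 10.1 and 10.2 CPM, then 11.3, 11.9 and 11.8 CPM. In MMP2sh2 it stood at 12.9, 12.4 and 13.7 CPM, then 11.7, 12.7 and 9.51 CPM, then 12.6, 15.9 and 13.0 CPM. In no comparison of a depleted line with control did MMP19 pass the test, the log2 differences lying between −0.16 ± 0.11 and 0.21 ± 0.11. Within the control it fell by 0.34 ± 0.11 (log2, SE) from day −2 to day 0 (edgeR adjusted p = 0.015), a call lost without replicate 2 of either day (highest 0.107). It rose by 0.29 ± 0.11 from day 0 to day +2 (0.044), a call lost with DESeq2, with no filter on low counts, on all 27 libraries, with the replicate block (highest of the 4, 0.0646) and without any 1 of 5 of the 6 libraries. In MMP2sh2 the same step was 0.31 ± 0.12 (edgeR adjusted p = 0.032), lost without any 1 of 3 libraries (highest 0.223). MMP19 shares 821 bases of exon with TMEM198B on the other strand and MMP9 shares 430 bases with SLC12A5-AS1. The counting did not use strand, so reads of these pairs were not separable by strand. Reads ambiguous between genes (6.95% to 7.83% of each file's total) were assigned to no gene. How many of them fell on MMP19 or MMP9 was not tested.

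**Figure D2:**
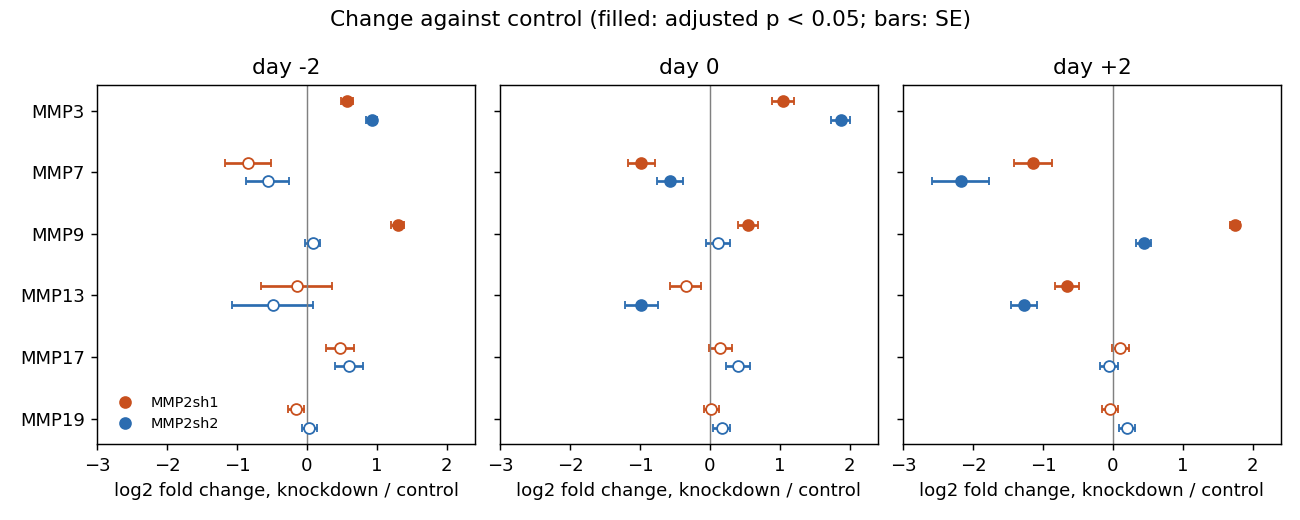
Log2 fold change of MMP3, MMP7, MMP9, MMP13, MMP17 and MMP19 in MMP2sh1 and MMP2sh2 against control at days −2, 0 and +2, with SE bars, filled where the adjusted p is below 0.05. MMP3 lies to the right and MMP7 to the left at day 0 in both lines. The value furthest right is that of MMP3 in MMP2sh2 at day 0 (1.87). Among the MMP2sh1 values it is that of MMP9 at day +2 (1.75). MMP3 has no value at day +2.

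The other 4 genes stayed close to 0. MMP1, interstitial collagenase, had its highest count, 14 reads, in control replicate 3 at day −2. MMP10, stromelysin-2, had 9, 6 and 20 reads in the control at day −2 and no read in the 3 MMP2sh2 libraries at day 0. MMP11, stromelysin-3, had its highest count, 19 reads, in MMP2sh1 replicate 2 at day +2, beside 5 and 0 reads in its group. MMP28, epilysin, had 9, 0 and 23 reads in MMP2sh1 at day −2. In most of the compared pairs of groups the ranges of these 4 genes overlapped, and for MMP1 in all of them. The pairs below did not overlap. The share of such pairs over all genes was not counted, so no change of these genes is read from them. MMP10 had 1, 0 and 2 reads in MMP2sh2 at day −2, below the control of that day. In the control MMP10 had 0, 2 and 3 reads at day 0, below both day −2 and the 6, 22 and 5 reads of day +2. In MMP2sh2 it had 2, 15 and 5 reads at day +2, above day 0. In the control, MMP11 had 1, 0 and 3 reads at day 0 and 4, 6 and 4 reads at day +2. MMP28 had 1, 4 and 1 reads at day 0 and 8, 5 and 6 reads at day +2, again without overlap. These comparisons of MMP10, MMP11 and MMP28 did not pass the filter on low counts and were not tested, and no fold change is given. MMP28 entered the tests of several comparisons and MMP10 that of 1 interaction, and neither was called.

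**Figure D3:**
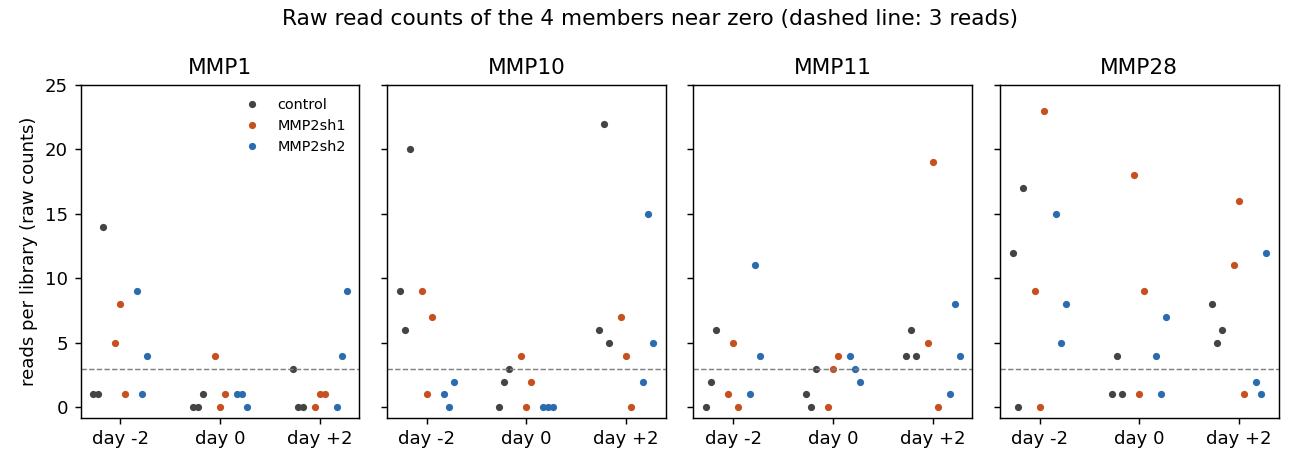
Raw read counts of MMP1, MMP10, MMP11 and MMP28 in each library by day and line, with a dashed line at 3 reads. The points reach 14, 22, 19 and 23 reads, and the groups that hold the highest count have 1, 1 and 14 reads for MMP1, 6, 22 and 5 for MMP10, 5, 19 and 0 for MMP11 and 9, 0 and 23 for MMP28.

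Levels of different genes were compared per kilobase of canonical transcript, without a correction for exon bases shared with other genes. In the control at day −2, MMP3 stood at 15.5 CPM per kb, MMP9 at 7.81, MMP19 at 3.91, MMP7 at 1.83, MMP17 at 1.15 and MMP13 at 0.229, beside 66.1 CPM per kb for MMP2. At day +2 the order was MMP9 at 8.50, MMP17 at 4.68, MMP19 at 3.70, MMP7 at 2.7, MMP13 at 2.15 and MMP3 at 0.0941 CPM per kb, beside 139 for MMP2. MMP3 thus went from first to last of the 6. Across the 9 groups, the ranges of neighbours in the order of MMP3 levels did not overlap for the 6 groups of days −2 and 0, and did overlap among the 3 groups of day +2. For MMP9 the highest groups were MMP2sh1 at day +2 and MMP2sh1 at day −2, each clear of the next, and MMP2sh2 and control at days −2 and +2 overlapped in sequence. For MMP7 only control at day 0 was clear of the group below it.

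Not all 10 members passed the filter on low counts in each comparison, so counts are given out of those tested. In MMP2sh1 against control, 2 of 7 were called at day −2 (MMP3 and MMP9), 3 of 6 at day 0 (MMP3, MMP7, MMP9) and 3 of 5 at day +2 (MMP7, MMP9, MMP13). Of all genes tested, 11.6%, 16.8% and 14.8% were called at these days. In MMP2sh2 against control, 1 of 6 was called at day −2 (MMP3), 3 of 6 at day 0 (MMP3, MMP7, MMP13) and 3 of 5 at day +2 (MMP7, MMP9, MMP13), beside 11.0%, 12.9% and 6.32% of all genes. In MMP2sh1 against MMP2sh2, 2 of 7, 2 of 6 and 1 of 6 members were called, beside 10.7%, 18.5% and 7.86%. From day −2 to day +2, 3 of 6 members were called in the control, beside 56.8% of all genes. In MMP2sh1 4 of 7 and in MMP2sh2 4 of 6 were called over that span, with MMP9 added, beside 54.9% and 54.7%. In the control, 6 of 6 members were called from day −2 to day 0 and 6 of 6 from day 0 to day +2, beside 35.5% and 41.4%. In MMP2sh1 the same steps called 4 of 7 and 4 of 7 members (32.7% and 46.0% of all genes), and in MMP2sh2 4 of 6 and 5 of 6 (30.3% and 45.5%). The interaction over the whole span called 1 of 7 members in MMP2sh1 and 0 of 8 in MMP2sh2 (7.40% and 4.98% of all genes). Those over single steps called 1 of 7 members each in MMP2sh1, beside 1.35% and 4.66% of all genes. In MMP2sh2 they called 1 of 6 each, beside 3.69% and 4.76%.

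Of the members, 5 lie in a run of 9 MMP genes on chromosome 11 that spans 435.2 kb, in the order MMP7, MMP20, MMP27, MMP8, MMP10, MMP1, MMP3, MMP12 and MMP13. MMP3 (chr11:102706532-102714340, GRCh37, minus strand) and MMP13 (chr11:102813724-102826461, minus strand) have MMP12 as the only MMP gene between them. Genes of other families between them were not looked for. In the control MMP3 fell and MMP13 rose from day −2 to day +2, by −7.34 and 3.24 on the log2 scale. MMP12, macrophage elastase, lay between them with 0.587 CPM at day −2 and no read in the 3 control libraries at day +2. MMP1 and MMP3 share bases of exon with the antisense pseudogene WTAPP1.

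**Figure D4:**
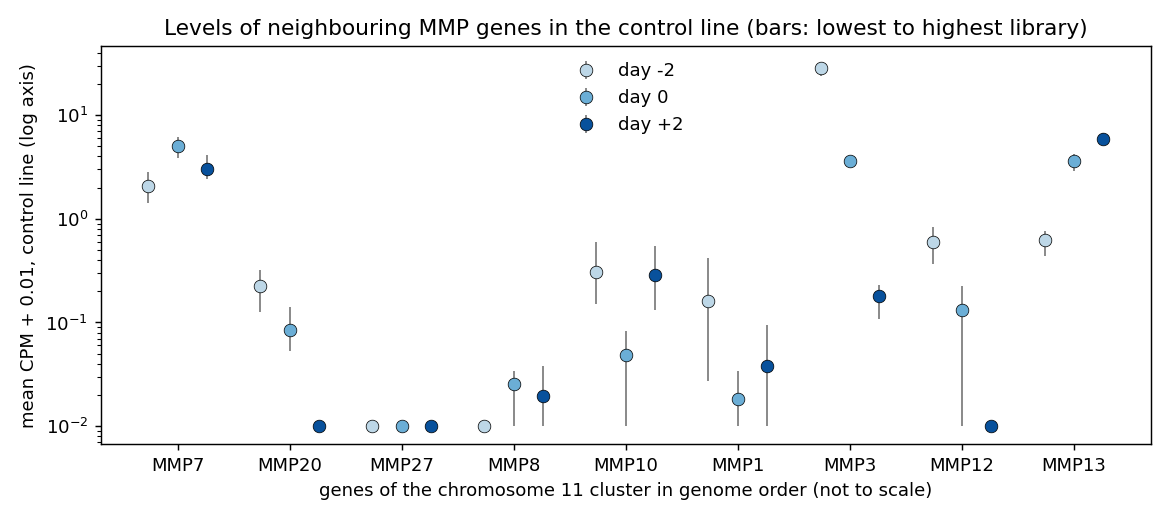
Mean level (CPM + 0.01, log axis) of the 9 MMP genes of the chromosome 11 cluster in the control line at days −2, 0 and +2, in genome order and not to scale, with bars from the lowest to the highest library. MMP3 falls from 28.2 to 0.171 CPM while MMP13 rises from 0.620 to 5.82 CPM.

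Over the 27 libraries, the genes whose log2 CPM followed a member most closely among 22106 candidates were PSMD11, SH3RF2 and EZR for MMP3 (Pearson r = 0.988, 0.987 and 0.985) and COL8A1, OCIAD2 and PTTG1IP for MMP9 (0.956, 0.948 and 0.941). For MMP13 they were CXXC4, SLC1A3 and HECTD2 (0.943, 0.934 and 0.931), and for MMP17 EMP1, PDE9A and ING4 (0.955, 0.951 and 0.950). For MMP7 (MND1, DROSHA and RBMX, 0.780, 0.756 and 0.730) and MMP19 (PLA2G4C, TRIM8 and TNKS1BP1, 0.810, 0.802 and 0.792) the closest genes were less alike. Among the members, MMP3 ran against MMP17 (r = −0.90) and MMP13 (−0.79). The 27 points share lines and days, so these values describe the libraries only.

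Of 14 other MMP genes, 7 were tested over the control span from day −2 to day +2, of which 3 rose and 4 fell (median log2 change −0.18, beside 0.03 over all genes, of which 56.8% were called). MMP24, a membrane-type MMP, fell by 2.48 ± 0.08 (edgeR adjusted p = 2.8e-19). Of 6 inhibitor genes 5 were tested, of which 3 rose and 1 fell (median 0.38). A2M, the broad protease inhibitor alpha-2-macroglobulin, rose by 4.49 ± 0.07 (edgeR adjusted p = 7.8e-26). Against control in MMP2sh1, the other MMP genes, a list that holds MMP2, had 2 called higher and 3 lower of 7 tested at day −2. At day 0 they had 1 higher and 3 lower of 6, and at day +2 1 and 1 of 6. Of 5 inhibitors tested, 0 were called higher and 1, 2 and 1 lower at the 3 days, beside 11.6%, 16.8% and 14.8% of all genes called. In MMP2sh1 against control A2M was lower at days −2, 0 and +2 (log2 −1.33 ± 0.16, −1.07 ± 0.09 and −0.38 ± 0.06), and MMP14, a membrane-type activator of pro-MMP2, differed by −0.36 ± 0.06 at day 0 and 0.24 ± 0.05 at day +2. In MMP2sh2 the list of other MMP genes again holds MMP2, the target of the hairpins. It had 0 called higher and 1 lower of 7 at day −2. At day 0 it had 0 and 2 of 6, and at day +2 1 and 1 of 6. Of the 5 inhibitors 2, 0 and 0 were higher and 0, 1 and 2 lower, beside 11.0%, 12.9% and 6.32% of all genes called. In this line A2M was lower at days 0 and +2 (−0.47 ± 0.08 and −0.50 ± 0.06), MMP14 was lower at day 0 (−0.23 ± 0.05), and TIMP2 and TIMP3 were higher at day −2 (0.27 ± 0.05 and 0.18 ± 0.06).

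Of the other lists, over the same control span, 5 of 9 activators of pro-MMPs tested rose and 2 fell (median 0.20), and 5 of 14 AP-1, ETS and RUNX regulators rose and 7 fell (median −0.15). Of 7 cytokine genes tested 1 rose and 3 fell (median −0.79), and of 8 matrix substrate genes 5 rose and 2 fell (median 0.60). At day +2, where 14.8% of all genes were called, MMP2sh1 against control called 3 higher and 2 lower of 9 activators, 1 higher and 2 lower of 14 regulators, 3 higher and 0 lower of 7 cytokines, and 5 higher and 1 lower of 8 substrates. MMP2sh2, where 6.32% of all genes were called, had 1 higher and 2 lower of 9 activators, 2 and 2 of 14 regulators, 1 and 0 of 7 cytokines, and 0 and 1 of 8 substrates. In these bulk samples, fewer cells that express a gene and less RNA per cell cannot be told apart.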

How the data were processed

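Poly(A) RNA of 27 U2OS libraries was analysed. Per the labels and methods, the authors used Trim Galore 0.6.0 for trimming, STAR 2.7.3a for alignment (build hg19), Samtools to drop poor alignments and HTSeq 2.0.0 to count exon reads, ignoring strand. What they deposited is a raw count for every symbol. The 5 summary lines that name no gene (16.8% to 19.1% of each file's total) were left out. Reads carry no molecular identifiers, so floors cover counting error only.

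Counts were fitted with edgeR 4.0.16 in R 4.3.3 (TMM, filterByExpr with a minimum count of 10, quasi-likelihood test, Benjamini-Hochberg adjustment over all genes tested, called at an adjusted p below 0.05). Each comparison used its own 6 libraries and each interaction its own 12. CPM used TMM factors over all 27 libraries. Scripts were tested on simulated data. Alternatives were median-of-ratios scaling, DESeq2 1.42.0, no filter, at least 10 counts in every library, a fit on all 27 libraries, a replicate block and leaving out each library. All 10 members are named, as are MMP2, up to 3 called genes of the 2 family lists in a comparison, and the 3 genes most like each member with a mean of at least 1 CPM. The members and lists were chosen with earlier results of these data known.

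Replicate numbers are shared across groups, but same-numbered libraries did not deviate together (correlations of −0.0248 to 0.0364 over 14 comparisons), so no block was used.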

Additional observations from a re-analysis of the deposited data

Results flagged for a closer look

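MMP3 and MMP9 differed between the MMP2sh1 and MMP2sh2 lines by a direct test. On the log2 scale, MMP3 in MMP2sh1 minus MMP2sh2 was −0.36 at day −2 and −0.83 at day 0 (edgeR adjusted p = 0.0014 and 4.9e-06, n = 3 per group). For MMP9 the same difference at days −2, 0 and +2 amounted to 1.21, 0.43 and 1.31 (edgeR adjusted p = 2.0e-09, 0.033 and 8.7e-09). The MMP9 call at day 0 was lost on all 27 libraries (edgeR adjusted p = 0.0601) and without any 1 of 4 libraries.

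The difference from control also changed with the day by the test of the interaction. For MMP9 in MMP2sh1 the interaction was 0.45 from day −2 to day +2, −0.76 from day −2 to day 0 and 1.21 from day 0 to day +2 (edgeR adjusted p = 0.025, 0.0097 and 2.8e-07). For MMP3 in MMP2sh2 it was 0.96 from day −2 to day 0 (edgeR adjusted p = 6.0e-05), where MMP3 fell less than in the control. For MMP7 in MMP2sh2 it was −1.61 from day 0 to day +2 (edgeR adjusted p = 0.042), with the library of 1 read in the day +2 group. This call was lost with DESeq2 (adjusted p = 0.411), on all 27 libraries and without any 1 of 6 libraries, and had no value with at least 10 counts in every library. The MMP9 call from day −2 to day +2 was lost on all 27 libraries and without any 1 of 7 libraries. That from day −2 to day 0 was lost without control replicate 3 of day 0 (edgeR adjusted p = 0.0547). No other result of these genes met the conditions for a closer look.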

How the results depend on the processing

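Of 65 called values of single genes, 40 had a value and kept their call under all 6 alternatives and without each library. A further 8 kept their call wherever they had a value but had none with at least 10 counts in every library, which left 11 of the 65 without a value. Of the 65, 11 were lost under some alternative, 13 without some library, and 0 reversed. Of 76 uncalled values, 4 were gained under some alternative and 6 without some library. The cause was not tested in any case below.

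The count of members called against control in MMP2sh2 at day −2 was 2 in place of 1 with DESeq2 and on all 27 libraries (MMP17 added). In MMP2sh1 against MMP2sh2 at day 0 it was 1 in place of 2 on all 27 libraries. With at least 10 counts in every library, MMP2sh2 had 2 in place of 4 from day −2 to day +2, and 3 in place of 5 from day 0 to day +2. The MMP2sh1 interaction from day −2 to day +2 called 0 in place of 1 on all 27 libraries, and that of MMP2sh2 called 1 in place of 0 with no filter (MMP7). The MMP2sh2 interaction from day 0 to day +2 called 0 in place of 1 with DESeq2, with at least 10 counts and on all 27 libraries. Without single libraries the counts ranged from 1 to 3 in MMP2sh1 against control at day +2, from 1 to 2 in MMP2sh2 at day −2, from 1 to 3 in MMP2sh1 against MMP2sh2 at day 0, and from 0 to 1 for both interactions from day −2 to day +2, for MMP2sh1 from day −2 to day 0 and for MMP2sh2 from day 0 to day +2.

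Values that changed sign were all uncalled. MMP7 in the MMP2sh2 interaction from day −2 to day 0 (0.0044) was −0.012 with median-of-ratios scaling, −0.012 with DESeq2, −0.026 with no filter, −0.034 with at least 10 counts, and −0.32 to 0.20 without single libraries. Against control without single libraries, MMP2sh1 ranged from −0.35 to 0.012 for MMP13 at day −2, −0.025 to 0.057 for MMP19 at day 0, and −0.0039 to 0.18 for MMP17 and −0.13 to 0.012 for MMP19 at day +2. MMP2sh2 ranged from −0.0093 to 0.20 for MMP9 and −0.0069 to 0.098 for MMP19 at day −2, −0.027 to 0.22 for MMP9 at day 0, and −0.18 to 0.12 for MMP17 at day +2. MMP2sh1 against MMP2sh2 ranged from −0.12 to 0.68 for MMP13 and −0.30 to 0.029 for MMP17 at day −2, and −0.0072 to 0.29 for MMP17 at day +2. MMP19 from day −2 to day +2 ranged from −0.13 to 0.013 in control, −0.027 to 0.12 in MMP2sh1 and −0.014 to 0.16 in MMP2sh2. Interactions in MMP2sh1 ranged from −0.45 to 0.11 for MMP7 and −0.35 to 0.058 for MMP13 (day −2 to 0), and −0.32 to 0.11 for MMP7 and −0.16 to 0.038 for MMP17 (day 0 to +2). In MMP2sh2 they ranged from −0.86 to 0.58 for MMP3 (day −2 to +2), −0.13 to 0.13 for MMP9 (day −2 to 0) and −0.075 to 0.12 for MMP19 (day 0 to +2).

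The replicate block changed 3 of 141 calls. It ended MMP19 in the control from day 0 to day +2 (edgeR adjusted p = 0.0506) and added MMP7 in MMP2sh2 from day −2 to day +2 (0.0057) and MMP17 in MMP2sh2 from day −2 to day 0 (0.048). With 0 to 23 reads per library, most comparisons of MMP1, MMP10, MMP11 and MMP28 could not be tested at this depth.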
